A study of Bos taurus with 6 samples.

Results

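The genes described here encode the subunits of the phagocyte NADPH oxidase (CYBA, CYBB, NCF1 and NCF4) and the principal antioxidant enzymes (SOD1, SOD2, SOD3, CAT and GPX1). They were taken by symbol from the mRNA count data of intramuscular fat (IMF), where 8 of the 9 genes have a row among 25444 genes. CYBB, which encodes the catalytic subunit gp91phox, has no row there and is not analysed here. The study compared Qinchuan steers, castrated at 6 months, with intact bulls of the same breed. All were weaned at 3 months and slaughtered at 24 months. Both groups were fed the same diet and were sired by a single bull, and IMF was dissected from the sternomandibularis muscle. RNA was pooled within each group before sequencing, so each group is 1 library. The series description and the paper give 6 animals behind each pool, whereas the sample labels give 3.

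The phagocyte NADPH oxidase moves electrons from NADPH across a membrane to oxygen and so makes superoxide. Its membrane part is a heterodimer of CYBB and CYBA (p22phox). On activation it is joined by cytosolic proteins, among them the organizer NCF1 (p47phox), the phosphoinositide-binding NCF4 (p40phox) and a RAC GTPase. Superoxide dismutases turn superoxide into hydrogen peroxide, SOD1 in the cytosol, SOD2 in mitochondria and SOD3 outside the cell. Catalase, in peroxisomes, and the glutathione peroxidases, of which GPX1 is the cytosolic and mitochondrial form, then remove the peroxide. In adipose tissue the oxidase is best known from resident macrophages and other leukocytes, whereas the antioxidant enzymes are made by nearly every cell.

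Raw counts summed to 12677375 in steers and 9868415 in bulls. The share taken by the 10 most counted genes was 18.8% and 13.0%. Counts were divided by size factors by the median of ratios (steers 1.04, bulls 0.959) and are called scaled counts below. The log2 ratio (log2 fold change) is that of steers over bulls, and the range in parentheses after it is its 95% Clopper-Pearson interval, which covers counting error only. A gene was called downregulated or upregulated when its adjusted p in an exact binomial test was under 0.05 and the ratio was more than 2-fold either way. Because each group is a single library, the difference has no replicate check, so this test compares 2 libraries and not the conditions.

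All 8 genes had counts in both libraries. NCF1 and NCF4 were called downregulated in steers and none of the 8 was called upregulated. Of the 17752 genes tested, 8.13% were called downregulated and 4.37% upregulated. The median log2 fold change was -0.52 over the 8 genes and 0.01 over all genes tested. The antioxidant enzymes all stayed within a log2 ratio of 1 in either direction, from -0.61 for SOD2 to 0.64 for SOD1.

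**Figure D1:**
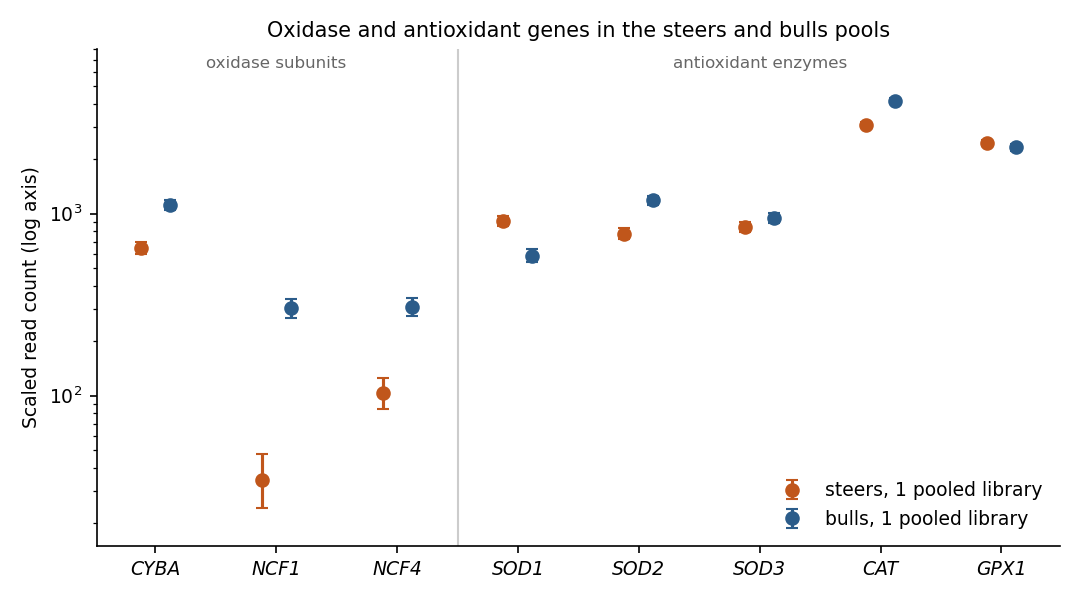
Scaled read count (log axis) of each of the 8 genes in the steers pool (orange) and the bulls pool (blue), with bars for the exact 95% Poisson interval of counting error. NCF1 is at 34.5 in steers and 303 in bulls, whereas the pairs of points for GPX1 and SOD3 lie close together; heights of different genes are not comparable because counts are not divided by transcript length.

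The largest difference between the libraries among the 8 genes was that of NCF1, the organizer subunit whose phosphorylation starts assembly of the oxidase. NCF1 had 36 counts in steers against 290 in bulls. Its scaled counts were 34.5 and 303, which is 8.77-fold lower in steers. The log2 fold change was -3.13 (-3.67 to -2.63), with an adjusted p of 9.97e-54 in the exact binomial test. Of the 14043 genes with at least 10 counts in either library, 287 had a lower fold change than NCF1, or 2.04%. The call did not survive an assumed biological coefficient of variation of 0.4 between the pools, under which the edgeR exact test gave NCF1 an adjusted p of 0.0767 and called 0.524% of all genes downregulated and 0.293% upregulated.

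NCF4, the subunit that binds phosphatidylinositol 3-phosphate on phagosomes, also fell. It had 108 counts in steers against 296 in bulls, a log2 ratio of -1.58 (-1.91 to -1.25) and an adjusted p of 1.04e-23 in the exact binomial test. With the assumed coefficient of variation of 0.4 its adjusted p in the edgeR exact test was 1. CYBA, the membrane subunit that also serves NOX enzymes outside phagocytes, had 673 counts in steers against 1070 in bulls. Its log2 ratio of -0.79 (-0.93 to -0.65) was below 0 beyond counting error but did not reach the fold threshold. Scaling by total counts, which placed the median of all genes at -0.23, moved CYBA to -1.03 and past the threshold.

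Other parts of the oxidase were taken from a list of 11 genes of the complex and its activation, 10 of which have a row. Of these 10, 6 were called downregulated and 0 upregulated, and the list median was -1.50, against 0.01 for all genes. The list includes CYBA, NCF1 and NCF4, so the calls of NCF1 and NCF4 are counted again here. The other calls were RAC2, VAV1, PRKCB and PRKCD. Over all genes tested, 8.13% were called downregulated and 4.37% upregulated. The log2 ratio was below 0 for 8 of the 10. RAC2, the RAC GTPase of blood cells, had 192 and 804 counts and a log2 ratio of -2.19 (-2.42 to -1.96). RAC1, the form made in most tissues, had 2095 and 1897 counts and a log2 ratio of 0.02 (-0.07 to 0.11). The RAC forms thus stood apart from each other in the same 2 libraries.

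PRKCB and PRKCD, protein kinases C that phosphorylate NCF1, had log2 ratios of -2.51 (-3.10 to -1.95) and -1.43 (-1.69 to -1.18), and both were called. VAV1, a leukocyte exchange factor for RAC, had 173 and 626 counts and a log2 ratio of -1.98. Among the genes that were not called, CYBC1, a chaperone needed for the CYBA and CYBB heterodimer, was listed under an older symbol with 654 and 836 counts and a log2 ratio of -0.48 (-0.63 to -0.33). RAP1A, a small GTPase that copurifies with the membrane part, was at 0.02. With CYBA and RAC1, these were the genes of the list that were not called.

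**Figure D2:**
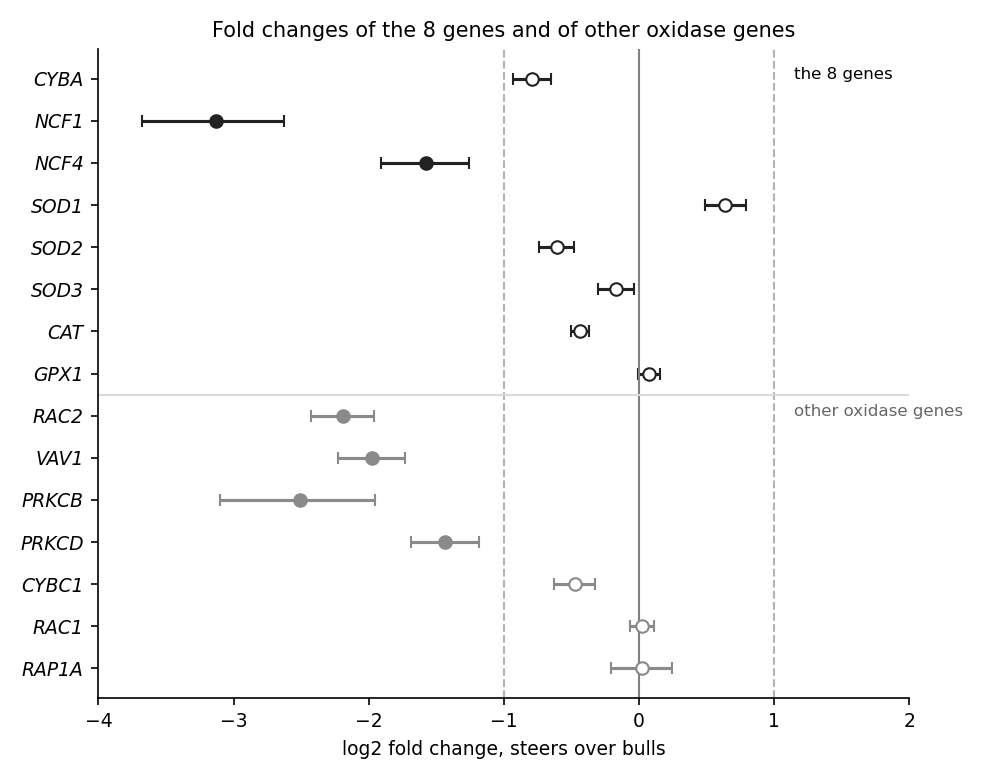
Log2 ratio of steers over bulls (horizontal axis) for the 8 genes and for 7 other genes of the oxidase and its activation, with 95% Clopper-Pearson intervals of counting error. Filled points are genes called by the exact binomial test and the fold threshold (dashed lines at -1 and 1), which are NCF1, NCF4, RAC2, VAV1, PRKCB and PRKCD.

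The subunits did not differ by the same factor, and this can be read without any scaling from their shares of the summed counts within a library. These groupings were chosen after the values had been seen. NCF4 made up 75.0% of the summed counts of NCF1 and NCF4 in steers (Clopper-Pearson interval 67.1 to 81.8) and 50.5% in bulls (46.4 to 54.6), and NCF1 the rest. With CYBA added to the sum, CYBA took 82.4% of the counts in steers (79.6 to 84.9) and 64.6% in bulls (62.3 to 66.9). NCF1 was thus lower in steers relative to NCF4, and CYBA was higher relative to the sum of all 3.

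Other NADPH oxidases had few counts in IMF. Of a list of 10 genes of the NOX and DUOX enzymes and their partners, 9 have a row and only NOX4, NOX5 and NOXO1 had a count. NOX4, a constitutively active form that pairs with CYBA, had 70 counts in steers against 88 in bulls and a log2 ratio of -0.45 (-0.93 to 0.02). The calcium-activated NOX5 had 14 and 12 counts, a log2 ratio of 0.10 (-1.12 to 1.34). NOXO1, with 8 and 7 counts, had a log2 ratio of 0.07 (-1.59 to 1.77). None of the 3 was called, and at this depth the counts do not resolve differences within these intervals.

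Genes of leukocytes were lower in steers across most of the markers examined, and their values are given here beside those of the oxidase. Of 14 macrophage and monocyte genes, 12 have a row, all 12 had a log2 fold change below 0 and 9 were called downregulated, with a median of -1.66. They summed to 20843 counts in steers against 44105 in bulls, or 0.164% and 0.447% of all counts. The 9 called genes ran from -1.34 for C1QA, a complement subunit, to -4.38 for LYZ, the lysozyme gene, which had 22 counts in steers against 421 in bulls. CD14, the lipopolysaccharide coreceptor, had 534 and 2490 counts and a log2 ratio of -2.34, and AIF1, an actin-binding protein of macrophages, was at -2.32. CSF1R, the receptor for the macrophage growth factor CSF1, had 7057 and 12309 counts and a log2 ratio of -0.92, and CD163, a haemoglobin scavenger receptor, was at -0.64, neither of them called. None of these markers was at 0. MARCO had 1 count in each library, so its sign comes from the scaling alone. In this bulk RNA, fewer cells of a type and less RNA per cell cannot be told apart.

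Per 100 counts of the macrophage markers, NCF1 had 0.173 counts in steers against 0.658 in bulls. NCF4 had 0.518 and 0.671 by the same measure. CYBA had 3.23 in steers and 2.43 in bulls. CSF1R and CD163, which were not called, made up 60.8% of this marker sum in steers and 46.2% in bulls. Without them NCF4 had 1.32 counts per 100 marker counts in steers and 1.25 in bulls. NCF1 stayed lower (0.440 and 1.22) and CYBA higher (8.23 and 4.51). CSF1R and CD163 differed less between the libraries than the other well counted markers, so leaving them out could only raise the steers side. The log2 ratio of NCF4 was then 0.084. That is small beside the width of the counting interval of the plain NCF4 fold change (-1.91 to -1.25), so no direction is read from it. No interval was computed for the ratios per marker count. Gene by gene, the log2 ratio of NCF4 was above that of 7 of the 12 markers and below that of 5. NCF1 had a lower ratio than 11 of the 12, and CYBA a higher ratio than 10. The 12 include MARCO, with 1 count in each library. The part of leukocyte number in these values was not tested.

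Genes of other blood cell types had fewer counts. A list of 9 T lymphocyte genes had 172 counts in steers against 982 in bulls, a median of -3.37 and 8 genes called downregulated. Of all genes tested, 8.13% were called downregulated. CD3E, part of the T cell receptor complex, had 35 and 253 counts, the kinase LCK 14 and 137, and CD3G 0 and 34. The coreceptor CD8A was at -4.35 and the kinase ZAP70 at -4.06, whereas CD247, the zeta chain, was at -0.46 and was the gene of this list that was not called. The 7 B lymphocyte genes had 24 and 150 counts and a median of -1.63 that moved to -0.62 with a prior of 5 counts in place of 0.5. CD22 and CD72, inhibitory receptors of B cells, were called downregulated, CD79A (6 and 11 counts) and BLK (2 and 3 counts) were not called, and CD79B and MS4A1 were at 0 in both libraries. Neutrophils carry the most oxidase of any blood cell. Of 10 neutrophil genes the 9 with a row summed to 293 counts in steers against 106 in bulls, with a median of -0.41. Of the 8 with a count, 5 had a log2 ratio below 0 and 3 above. Most of the steers sum came from S100A8 (95 and 8 counts) and S100A9 (149 and 29 counts), a calcium-binding pair of myeloid cells. Both were called upregulated in steers. S100A12 had 20 and 30 counts and the lactoferrin gene LTF 12 in each library, and neither was called. With equal counts, the sign of LTF, which is below 0, comes from the scaling alone. MPO, the granule peroxidase, had 9 and 7 counts, CXCR2 had 0 and 3, and CAMP was at 0 in both. CSF3R had 6 and 13 counts and MMP9 2 and 4, and neither was called.

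**Figure D3:**
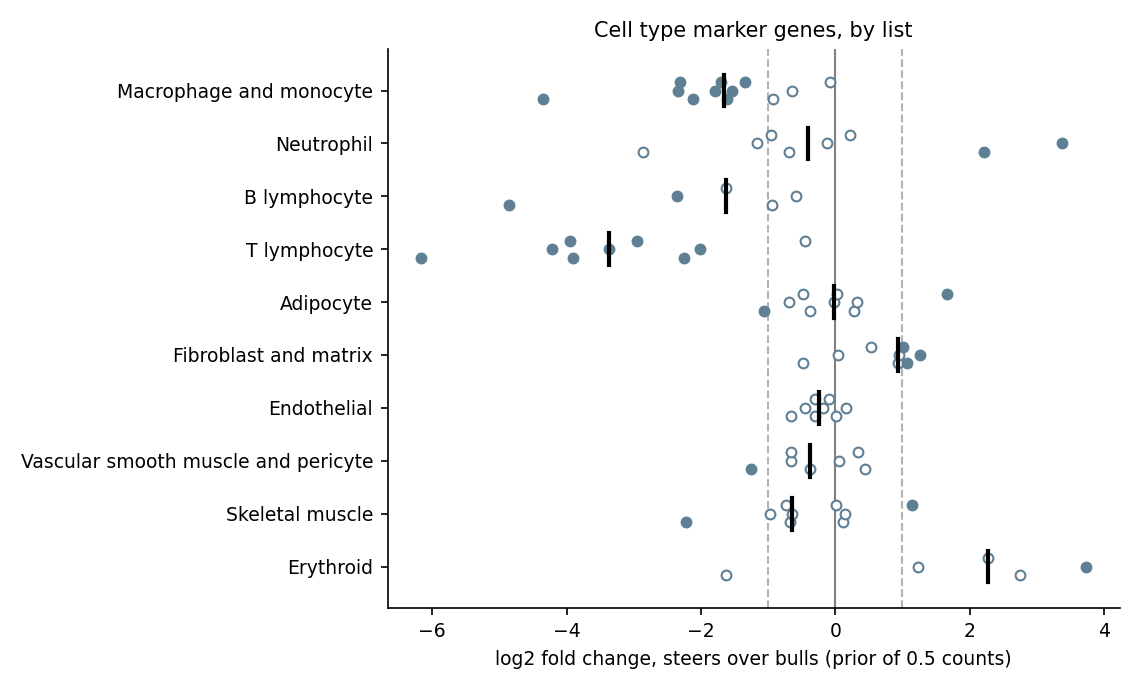
Log2 ratio of steers over bulls (horizontal axis, with a prior of 0.5 counts) of each cell type marker gene with a count, by list, with filled points for called genes and a black bar at the list median. The macrophage and T lymphocyte lists lie below 0 throughout, with medians of -1.66 and -3.37, and the fibroblast and matrix list has a median of 0.94.

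The superoxide dismutases showed different values for the cytosolic and mitochondrial enzymes. SOD1, the copper and zinc enzyme of the cytosol, had 955 counts in steers against 563 in bulls, a log2 ratio of 0.64 (0.49 to 0.79). SOD2, the manganese enzyme of mitochondria, had 808 and 1132 counts and a log2 ratio of -0.61 (-0.74 to -0.48). SOD3, the extracellular enzyme that binds heparan sulphate in the matrix, had 881 and 911 counts, a log2 ratio of -0.17 (-0.31 to -0.04). The intervals of SOD1 and SOD2 lie on opposite sides of 0, but neither gene reached the fold threshold. The adjusted p of SOD1 in the exact binomial test was 3.66e-16, and it was 0.601 in the edgeR exact test with an assumed coefficient of 0.2. For SOD2 these values were 4.74e-19 in the exact binomial test and 0.624 in the edgeR exact test.

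As shares of the summed dismutase counts, which need no scaling, SOD1 took 36.1% in steers (34.3 to 38.0) and 21.6% in bulls (20.0 to 23.2). SOD2 took 30.6% (28.8 to 32.4) and 43.4% (41.5 to 45.4), the opposite way. The share of SOD3 was 33.3% in steers (31.5 to 35.2) and 35.0% in bulls (33.1 to 36.8), with overlapping intervals. CCS, the chaperone that loads copper into SOD1, had 639 and 606 counts and a log2 ratio of -0.05 (-0.21 to 0.12). ATOX1, the copper chaperone of the secretory pathway that supplies SOD3, was at 0.03 (-0.25 to 0.31). None of the 6 genes with a row in the list of dismutases and copper supply was called, and the list median was -0.11.

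Vascular smooth muscle is a main source of SOD3, and the 7 genes of a smooth muscle and pericyte list had a median of -0.37. In that list MCAM, an adhesion molecule of vessel walls, had the most counts and was called downregulated at -1.26. PDGFRB, a receptor of pericytes, and the actin-binding TAGLN were at 0.05 and 0.45. Of the 7 genes, 4 lay below 0 and 3 above, with ACTA2 at -0.66 and MYH11 at -0.37. The list of 8 endothelial genes had a median of -0.24 and 0 calls, with PECAM1 and VWF, both of vessel lining, at 0.16 and -0.19. The part of these cells in the SOD3 value was not tested.

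Catalase and GPX1 were both well counted. CAT had 3214 counts in steers against 3999 in bulls, a log2 ratio of -0.44 (-0.50 to -0.37). GPX1, a selenium-containing glutathione peroxidase, had 2547 and 2222 counts and a log2 ratio of 0.07 (-0.01 to 0.16). Its adjusted p was 0.162 in the exact binomial test, and its direction turned to -0.16 with total-count scaling. As shares of the counts of these 2 genes, CAT took 64.3% in bulls (63.1 to 65.5) and 55.8% in steers (54.5 to 57.1). Neither gene was called.

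The 8 genes thus fall into a pair with lower counts in steers past the fold threshold, NCF1 and NCF4, and 6 genes inside it. CYBA, at -0.79, had 14.4% of the 14043 better-counted genes below it, and SOD2 had 18.4%. SOD1 had 87.0% of them below it. SOD3, CAT and GPX1 lay nearer the middle, with 36.9%, 24.1% and 54.6% below.

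**Figure D4:**
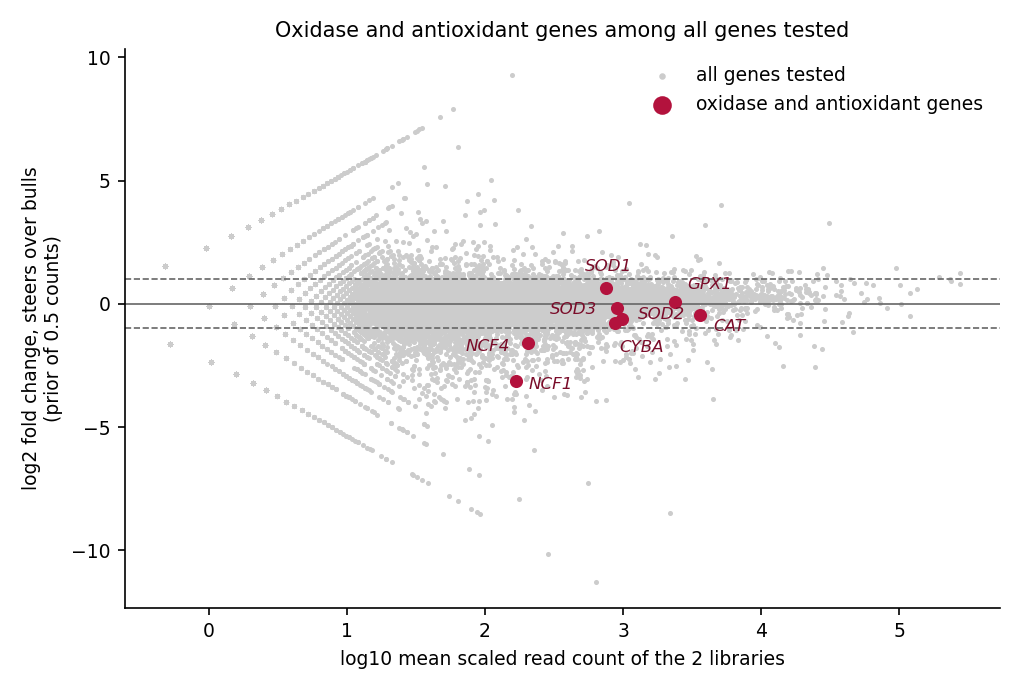
Log2 ratio of steers over bulls (vertical axis, prior of 0.5 counts) against the log10 mean scaled count of the 2 libraries for all 17752 genes tested (grey) and the 8 genes (red). NCF1 and NCF4 lie below the dashed line at -1, and SOD1, SOD2, SOD3, CAT, GPX1 and CYBA lie between the dashed lines.

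Glutathione peroxidases beyond GPX1 covered both directions. GPX3, the secreted enzyme of plasma that fat also makes, had 14661 counts in steers against 23141 in bulls, a log2 ratio of -0.78 (-0.81 to -0.75). GPX4, which reduces lipid peroxides in membranes, had 865 and 464 counts and a log2 ratio of 0.78 (0.61 to 0.94). GPX7, an endoplasmic reticulum enzyme that works with protein disulphide isomerase, had 1355 and 755 counts and a log2 ratio of 0.72 (0.59 to 0.85). GPX5 and GPX6, known from the reproductive tract and the nasal epithelium, had no count. Of the 9 genes of the catalase and glutathione peroxidase list, 7 had a count and 0 were called, and their median was 0.28, or 0.04 with total counts. The 7 include GPX2, with 2 counts in steers and 0 in bulls. With a minimum of 10 counts in either library the median was 0.18.

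Peroxiredoxins and thioredoxins remove peroxide with thiols in place of selenium or haem. None of the 16 genes of this list with a row was called, 13 of them had a log2 fold change above 0, and the median was 0.28. That median was 0.05 with scaling by total counts. TXNIP, the thioredoxin inhibitor that is induced by glucose, had the most counts of the list (39099 against 46860), with a log2 ratio of -0.38. PRDX6, a peroxiredoxin with phospholipase activity, had 2762 and 1842 counts and was at 0.46 (0.38 to 0.55).

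Glutathione itself is made by GCLC with its modifier GCLM and then by GSS. GSS had 528 counts in steers against 114 in bulls and was called upregulated, with a log2 ratio of 2.09 (1.79 to 2.39). GCLC, the catalytic subunit of the rate-limiting enzyme, had 68 and 137 counts and was called downregulated at -1.13 (-1.57 to -0.70). GCLM had 89 and 58 counts and a log2 ratio of 0.50 (0.00 to 1.00) and was not called. GSS and GCLC thus passed the thresholds in opposite directions, and GCLM did not pass them. CHAC1, which breaks glutathione down, was called upregulated from 22 and 2 counts, a log2 ratio of 3.34 (1.31 to 6.47). GGT5, a gamma-glutamyltransferase that acts on leukotriene C4 and glutathione, had 17 and 57 counts and was called downregulated at -1.87. The list of 11 genes had a median of 0.35. It gave 2 calls in each direction, against 8.13% down and 4.37% up over all genes tested. GSR, which recycles oxidized glutathione, was at -0.04. The best counted of the genes that were not called were SLC3A2, the heavy chain of the cystine transporter, at 0.50, and OPLAH, the oxoprolinase, at 0.35.

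NFE2L2 (NRF2) is the transcription factor that induces many antioxidant genes once KEAP1 releases it. In the list of its 14 regulators and targets 2 genes were called downregulated and 0 upregulated, with a median of -0.13. Over all genes tested, the shares called were 8.13% and 4.37%. The called genes of this list were GCLC, already counted in the glutathione list, and BACH1. BACH1, a repressor that competes for the same elements, had 112 and 225 counts and a log2 ratio of -1.13 (-1.47 to -0.80). NFE2L2 had 537 and 693 counts and was at -0.49, and KEAP1, at 0.20, had 1106 and 883. HMOX1, the haem-degrading enzyme that macrophages express strongly, had 537 and 885 counts and a log2 ratio of -0.84. NQO1, a quinone reductase, had 301 and 151 counts and a log2 ratio of 0.87 (0.59 to 1.16). The ferritin heavy chain FTH1 had 14132 and 17048 counts and was at -0.39. Targets of this factor therefore lay on both sides of 0.

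**Figure D5:**
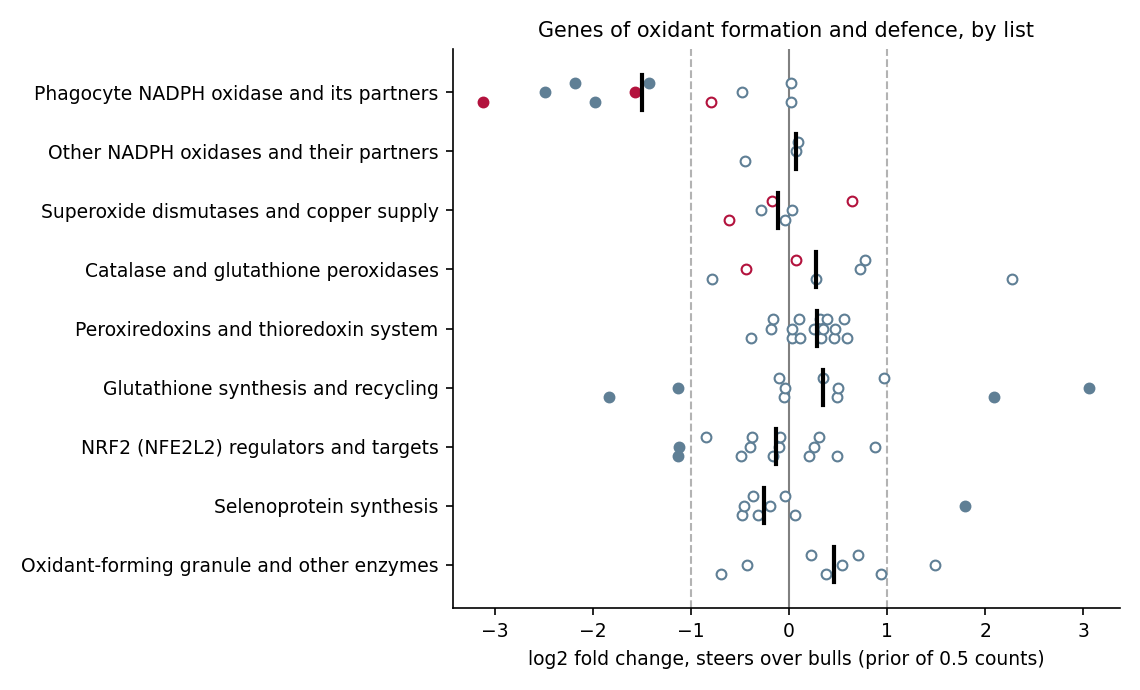
Log2 ratio of steers over bulls (horizontal axis, with a prior of 0.5 counts) of each gene with a count in the lists of oxidant formation and defence, with the 8 genes in red, filled points for called genes and a black bar at the list median. The phagocyte oxidase list has a median of -1.50, whereas the medians of the other lists lie between -0.25 and 0.46.

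Over all 9 lists, 82 genes outside the oxidase and antioxidant set were counted once each, and 70 of them had a count. Of the 70, 7 were called downregulated and 3 upregulated, with a median of 0.03. These counts lie near the shares over all genes tested, of which 8.13% were called downregulated and 4.37% upregulated. Of the 7 that were called downregulated, 4 belong to the oxidase list. The others were GCLC, GGT5 and BACH1.

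Genes with a pattern like that of each member were sought among genes whose summed scaled count was within 1.5 times its own, by nearness of the log2 fold change. With 2 libraries this measure holds a single ratio and says little. For NCF1 only 1 of 2756 genes of like level lay within 0.1, which was NKG7, a granule protein of cytotoxic lymphocytes, with 44 and 338 counts and a log2 ratio of -3.06. The next nearest was MYOZ2, a sarcomere protein of slow fibres, at -3.25. Nearest to NCF4, at -1.58 each, were PRKCQ, a protein kinase C of T lymphocytes, and TNFAIP3, an inhibitor of NF-kB signalling. For SOD3, 198 of 1548 genes lay within 0.1, and for GPX1 97 of 555. Among the nearest genes were ARRDC3 and SELENBP1 for CYBA, TULP3 and IPO4 for SOD1, RAB3IL1 and LOC100851515 for SOD2, WDR55 for SOD3, LOC511937 and LOC782921 for CAT, and CAPZB and GANAB for GPX1.

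Adipocyte genes were well counted in both libraries of this dissected fat, with 40972 counts in steers against 40070 in bulls over 9 genes. They had a median of -0.02, with LPL called upregulated at 1.67 and FABP4 called downregulated at -1.06, and CIDEC, a lipid droplet protein, and the adipokine ADIPOQ had log2 ratios of 0.28 and -0.68. The 8 fibroblast and matrix genes had a median of 0.94 and 3 calls upward, which were COL3A1, SPARC and COL1A1 at 1.27, 1.08 and 1.00. Of all genes tested, 4.37% were called upregulated. The collagen chain COL1A2 and the proteoglycan DCN were at 0.93 and 0.04, and the list took 11.5% of all counts in steers and 6.94% in bulls. The 9 skeletal muscle genes had a median of -0.65, with the slow myosin MYH7 called downregulated at -2.23 and the fast myosin MYH1 called upregulated (247 and 102 counts), and ACTA1, the muscle actin, and the myosin MYH2 were at -0.65 and 0.01. Erythroid genes, whose cells are rich in catalase, summed to 42 and 8 counts, most of them on the globins HBA and HBB, and AHSP, a haemoglobin chaperone, had 3 and 0. The part of these cell types in the values of SOD1, SOD2, CAT and GPX1 was not tested.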

How the data were processed

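IMF mRNA was measured in 1 pooled library of steers and 1 of bulls, on an Ion Proton sequencer. The authors removed adaptors and low-quality reads, used MapSplice for alignment to the bovine genome and deposited raw counts per gene, without normalization. The submitters' processing notes name BWA and a human genome build instead. The counting program, its use of strand and its treatment of reads that match several places are not given in the sources used here. The 4 small RNA libraries were not used here.

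Size factors were computed in numpy 2.4.6. An exact two-sided binomial test (scipy 1.17.1, the smaller tail doubled) compared the counts of each gene. Benjamini-Hochberg adjustment of the p-values was over all 17752 genes that had a count. The code was run on simulated Poisson counts, which hold no variation between animals or pools, so that run cannot speak to such variation. Medians of lists use a prior of 0.5 counts. Alternatives were other scalings, filters, thresholds and priors, and edgeR 4.0.16 exact tests (R 4.3.3) with assumed coefficients of variation of 0.1, 0.2 and 0.4.

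The genes, lists and rules were chosen with earlier results of these data known. Named are the 8 genes, RAC1, RAC2 and CYBC1, and per list up to 3 called genes with the largest fold change (at least 10 counts in either library), 2 uncalled genes with the most counts and, for marker lists, also the 2 genes with the most counts. Genes named for likeness are the 2 nearest in log2 fold change at a like level. All other named genes were picked after their values were seen. A symbol was matched to an older one for 2 list genes. None of the 8 genes overlaps another in the RefSeq gene table of a later bovine assembly. A gene of the oxidase list and a gene of the B lymphocyte list, left out of the counts and medians, and a gene named for likeness are not reported here. Gene positions and sequences are not given here.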

Additional observations from a re-analysis of the deposited data

How the results depend on the processing

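NCF1 and NCF4 were the genes called downregulated with TMM scaling, with total counts less the 10 most counted genes, with a minimum of 10 counts and by fold alone, and with assumed coefficients of variation of 0.1 and 0.2 (edgeR exact test). With 0.4 the edgeR exact test called 0 of the 8 genes, and 93 genes down and 52 up over the table, against 1444 and 776. With 0.2 these were 762 and 368. Total counts added CYBA and gave 2006 down and 539 up, so that 21.2% of calls were upregulated in place of 35.0%. Without a fold threshold 6 of the 8 genes were called down and 1 up, with 3254 down and 3535 up over the table (52.1% upregulated), and by fold alone the table gave 2912 and 2317. GPX1 turned to -0.16 with total counts and to -0.059 with total counts less the 10 most counted genes. The other 7 genes kept their sign in every alternative tried. A marker sum without CSF1R and CD163 was an alternative chosen after seeing the data. It moved the log2 ratio of NCF4 per macrophage marker count from -0.37 to 0.084. Lists of few counts moved most, the erythroid median from 2.27 to 0.66 with a prior of 5 counts. How far animals within a pool differed cannot be read from 1 library per group. No paired analysis was possible because the mRNA data hold 1 library per group.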

Other observations

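Selenium reaches GPX1, GPX3 and GPX4 through a dedicated machinery that inserts selenocysteine. Of 8 genes of selenoprotein synthesis and transport, PSTK, the kinase that prepares the transfer RNA for selenocysteine, was called upregulated, with 54 counts in steers against 14 in bulls and a log2 ratio of 1.83 (0.96 to 2.79). The other 7 were not called, and the list median was -0.25. Of all genes tested, 4.37% were called upregulated. SELENOP, the selenium carrier of plasma, was listed under an older symbol with 6962 and 7295 counts and a log2 ratio of -0.19. SEPHS1 had 356 and 336 counts and was at -0.04.

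Enzymes that form oxidants outside the NADPH oxidase family gave 0 calls in the exact binomial test. Of the 9 genes 8 have a row, with a median log2 ratio of 0.46, or 0.22 with total counts. XDH, the xanthine dehydrogenase that can be converted to an oxidase and also coats milk fat droplets, had 6124 counts in steers against 9114 in bulls and a log2 ratio of -0.70 (-0.74 to -0.65). AOC3, an amine oxidase of adipocytes and vessels that releases hydrogen peroxide, had 3562 and 2005 counts and a log2 ratio of 0.71 (0.63 to 0.79). Both lie beyond counting error on opposite sides of 0 and short of the fold threshold.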
